A study of Solanum lycopersicum with 10 samples.

Results

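Root tips of tomato (Solanum lycopersicum, line M82) were compared after transfer to the auxin analog 2,4-D and after mock treatment, with 2 libraries in each group. They are 4 of the 10 libraries of a series on auxin response, and the members of the comparison are the 12664 of 35767 loci that reached at least 10 normalized counts in at least 2 of these 4 libraries. Seedlings had been raised on Murashige and Skoog plates at 22 °C in constant light. On day 4 from germination they were transferred onto 1 µM 2,4-D for 3 h, and root tips of 1 cm were then cut and frozen. The mock seedlings carried the mock label, and the composition of their medium is not given in the sources used here. A second experiment supplied the other 6 libraries, and it is used here to estimate the spread and to show where the root response differed: greenhouse plants of 3 weeks sprayed with 1 µM picloram, another auxin analog, or with mock, with young primordia of leaf 5 taken after 3 h (n = 3 each). Nothing in the labels says whether replicates came from separate plants or pools of plants, so p-values measure the spread between libraries, which may be technical.

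Auxin is bound by a co-receptor made of a TIR1/AFB F-box protein and an Aux/IAA repressor. Binding leads to destruction of the Aux/IAA protein and frees the ARF transcription factors that it holds in check. Among the genes that respond early are Aux/IAA genes themselves, GH3 genes, whose enzymes conjugate auxin to amino acids, and SAUR genes, and auxin is also known to raise ethylene production and to restrain elongation of the root. 2,4-D is a synthetic auxin that is broken down more slowly than the natural hormone.

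Each library was made with a kit that reads the 3′ end of polyadenylated transcripts. Root library totals were 2.83 to 2.96 M normalized counts, and in the low values 1 read was worth about 0.852 to 1.22 normalized counts, so that a value near 1 stands for about 1 read. Across the tested loci, which are not independent replicates, the log2 values of the 2,4-D libraries correlated with r = 0.963 and those of the mock libraries with r = 0.973. The root label was checked against markers. The root carrier Solyc07g006900 stood at 436 and 327 normalized counts in 2,4-D root tips, at 332 and 321 in mock root tips and at 0 to 2.40 in leaf libraries. The 26 light-harvesting and Rubisco loci that mark green tissue summed to 1012 to 1126 normalized counts in 2,4-D root tips and 1225 to 1396 in mock root tips, against 13197 to 16423 in picloram leaf and 22331 to 23980 in mock leaf, with 9 to 13 and 11 to 15 of them at 0 in the root groups. Their sum was therefore somewhat lower on 2,4-D, but most of it came from a single locus, Solyc12g011450. That locus had 984 and 959 normalized counts in 2,4-D root tips and 1193 and 1259 in mock root tips. The lower sum is thus mainly a value of that locus and not of the green loci as a set, and its part in the results was not tested. Of the other root markers, the stem cell niche locus Solyc03g096520 was at 0 in all 10 libraries and the iron uptake locus Solyc02g069200 at 0 or 1.22, so neither bears on the label, and both ground tissue loci were present in leaf as well.

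More loci rose on 2,4-D than fell. With limma and Benjamini-Hochberg adjustment over all tested loci, 441 loci rose (3.48% of those tested) and 135 fell (1.07%), 4.55% in all, and 2066 had an unadjusted p under 0.05 (16.3%). The median log2 fold change, 2,4-D over mock, was -0.02 over all tested loci. At a mean level of at least 100 over the 4 libraries, 111 rose and 78 fell of 4229 loci, and under 100, 330 rose and 57 fell of 8435. The minimum bears on this contrast: 426 loci entered with both mock libraries under 10, through 2,4-D libraries in which they are high, and 192 of them were called, while 201 entered with both 2,4-D libraries under 10 and 22 were called. Without those entries 249 loci rose and 113 fell, with median log2 fold changes of 1.37 and -0.86. The counts rested on each library: with the same loci tested, 207 rose and 49 fell without 2,4-D library 1, 226 and 52 without 2,4-D library 2, 239 and 13 without mock library 1, and 324 and 38 without mock library 2, and 177 of the 576 loci were called in all 4 of these fits, 167 that rose and 10 that fell. The 2,4-D and mock libraries did not overlap for any called locus, but that holds for 53.8% of all tested loci and shows little at n = 2. In whole-tissue RNA, fewer cells of a type and less RNA per cell cannot be told apart.

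**Figure D1:**
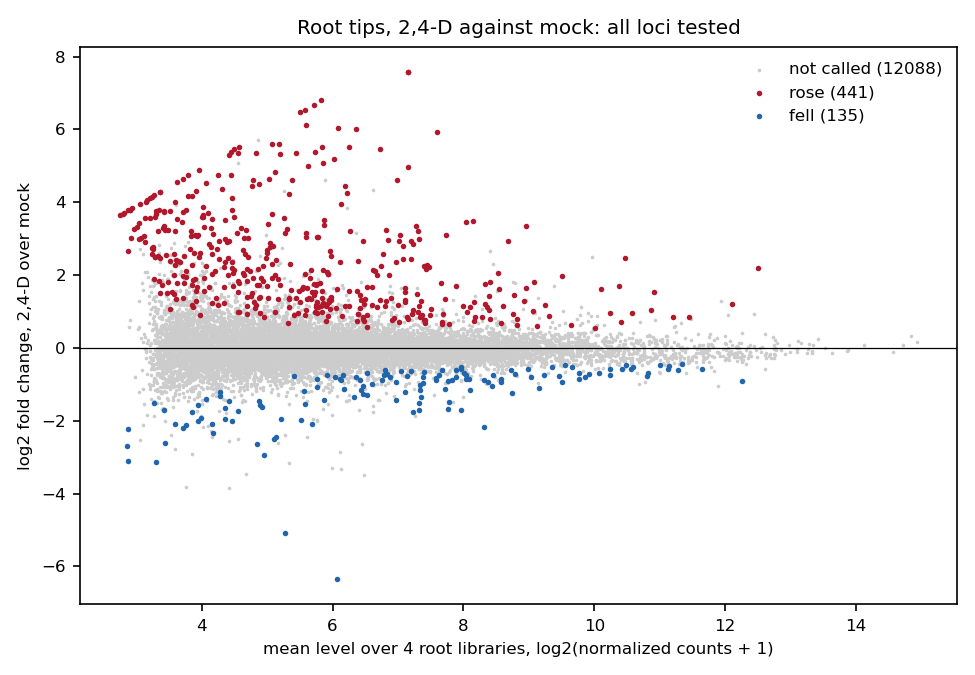
Each point is a tested locus, with its mean level over the 4 root libraries on the horizontal axis, as log2(normalized counts + 1), and the log2 fold change of 2,4-D over mock on the vertical axis. The 441 loci that rose are red, the 135 that fell blue and the 12088 not called grey; at the left edge, loci under the minimum in one group could enter only with at least 10 in both libraries of the other.

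The table holds no gene names, so functions were read from 29 lists of identifiers recalled from published tomato gene families, whose membership was not checked locus by locus. A list name therefore says what its loci are recorded to code for as a family, and no locus is given a name of its own. The SAUR and glutathione transferase lists take every locus of their intervals, so a member need not belong to the family. Of 485 listed loci 480 were in the table and 226 were tested. Of these 32 rose and 4 fell, 15.9%, against 4.55% of all tested loci; the lists were chosen with earlier results of these data known, and nothing is read from that share. A call was made in 16 lists, and 13 lists had none. Each list count below is to be read beside the 3.48% that rose and 1.07% that fell of all tested loci, and 1 call in a short list shows little. Without the loci that reached the minimum through one group alone, 24 of 208 rose and 3 fell. Counting the lists assembled later as well, 42 list loci were called. With 1 of the 4 root libraries left out and the same loci tested, most of them lost the call in some or all fits. Calls described below as kept or lost without a root library refer to those fits, which leave 1 library in a group. A locus that reached the minimum through one group alone was tested there only through libraries that include the one left out. With the minimum taken over the 3 libraries that remain, further calls of loci named below ended. Without 2,4-D library 1 these were Solyc04g076850, Solyc06g075650, Solyc10g086180, Solyc09g092520 and Solyc01g099630. Without 2,4-D library 2 they were Solyc03g120500, Solyc01g065980 and Solyc10g086180. Quantile normalization ended 14 of the 42 calls and a fit with no mean-variance trend 14, and 25 kept their call in every setting that did not leave out a root library.

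**Figure D2:**
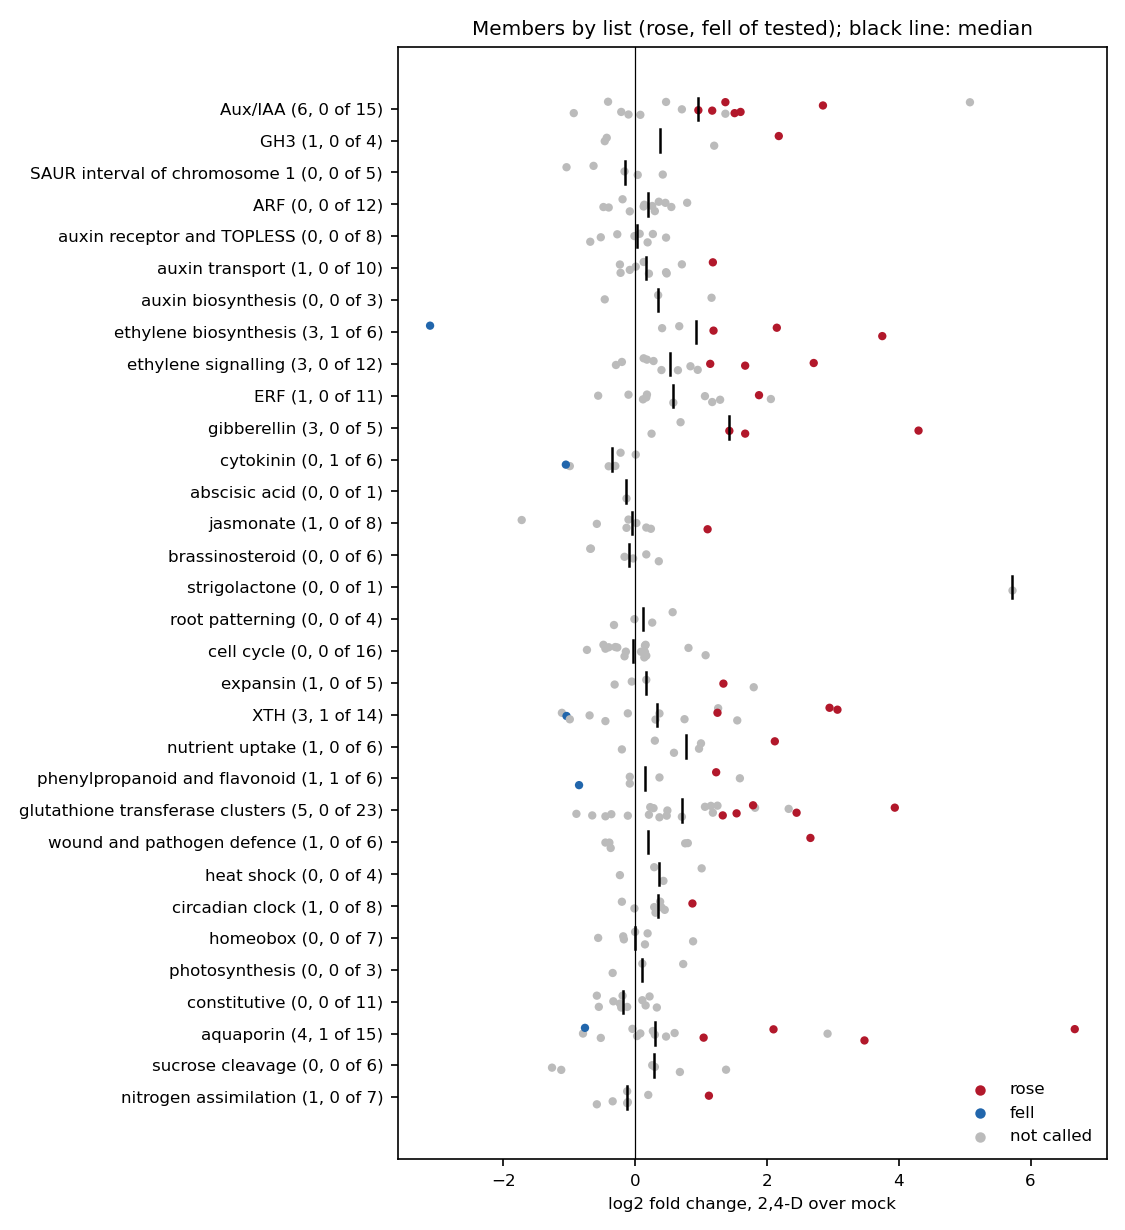
Each point is a tested locus of the list named on the left, placed by its log2 fold change of 2,4-D over mock, with red for loci that rose, blue for loci that fell and grey for loci not called. The black bar is the list's median, and the counts beside each name give the loci that rose and fell among those tested. The last 3 lists were assembled after the data had been examined.

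In the Aux/IAA list of repressors 6 of 15 tested loci rose and none fell, with a median log2 fold change of 0.96, against -0.02 over all tested loci. Of the 15, 3 reached the minimum through 2,4-D alone, Solyc06g084070, Solyc03g120390 and Solyc09g065850, and without them 4 of 12 rose, with a median of 0.59. Solyc06g084070 stood at 29.8 and 28.9 normalized counts on 2,4-D, against 3.24 and 3.16 in mock (log2 fold change 2.85 ± 0.40, SE, limma adjusted p = 0.00153). Solyc04g076850 had 2134 and 1920 on 2,4-D and 1049 and 1029 in mock, a smaller fold at a far higher value (0.96 ± 0.15, adjusted p = 0.0027). Solyc03g120500 had 49.3 and 73.0 on 2,4-D and 15.0 and 24.3 in mock (1.60 ± 0.25, adjusted p = 0.00326). The groups were apart in Solyc04g076850 and Solyc03g120500, as in 53.8% of all tested loci, and in Solyc06g084070 the minimum fixed that. The calls of these 3 loci were kept with any 1 root library left out and the same loci tested. With the minimum over the 3 that remain, Solyc04g076850 lost its call without 2,4-D library 1. Solyc03g120500 then lost its call without 2,4-D library 2. Solyc06g084070 reached the minimum through both 2,4-D libraries, so that minimum would not admit it without either of those.

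Calls of the other 3 Aux/IAA risers were less firm. Solyc03g121060 had 41.4 and 40.7 normalized counts on 2,4-D and 12.4 and 18.8 in mock (log2 fold change 1.37 ± 0.29, SE, limma adjusted p = 0.0181), and was called again only without mock library 2 (adjusted p = 0.0291; 0.115 to 0.195 without each other root library). Solyc09g083280 had 179 and 173 on 2,4-D and 82.6 and 72.9 in mock (1.17 ± 0.26, adjusted p = 0.0229), and Solyc03g120390 had 14.4 and 16.3 on 2,4-D and 4.14 and 5.36 in mock (1.51 ± 0.34, adjusted p = 0.0253). Both of these calls ended without any 1 root library (adjusted p 0.111 to 0.157 and 0.0645 to 0.173). Over the list, 3 or 4 loci rose with 1 root library left out. Members of the family did not move as a block: 4 of the 15 fold changes were below 0, the lowest in Solyc06g053830, with 29.9 and 47.1 on 2,4-D and 69.8 and 75.2 in mock (-0.93 ± 0.29, adjusted p = 0.104, not called). Its neighbour by identifier, Solyc06g053840, had 313 and 305 on 2,4-D and 221 and 226 in mock (0.47 ± 0.15, adjusted p = 0.132), the other direction and also not called. This pair was chosen after its values were seen.

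Among the other auxin lists, calls were sparse, and of all tested loci 3.48% rose. In the GH3 list 1 of 4 tested loci rose: Solyc01g107390, with 56.2 and 36.6 normalized counts on 2,4-D and 7.67 and 11.1 in mock (log2 fold change 2.18 ± 0.46, SE, limma adjusted p = 0.0201). In the list of PIN efflux and AUX1/LAX influx carriers 1 of 10 rose: Solyc10g080880, with 34.1 and 42.8 on 2,4-D and 18.5 and 14.4 in mock (1.18 ± 0.24, adjusted p = 0.017). Both calls ended without any 1 root library (adjusted p 0.0621 to 0.180 and 0.0527 to 0.150). The libraries of the root carrier Solyc07g006900, given above as a marker, overlapped between the groups.

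No call was made in the lists of ARF factors (12 tested, log2 fold changes -0.48 to 0.79), of TIR1/AFB receptors and TOPLESS co-repressors (8 tested, -0.68 to 0.47), or of YUCCA and tryptophan aminotransferase enzymes of auxin synthesis (3 tested, -0.46 to 1.16). The medians of these lists were 0.20, 0.03 and 0.35, the last -0.06 without 1 locus that reached the minimum through 2,4-D alone. The ARF locus of highest level, Solyc07g016180, had 126 and 102 normalized counts on 2,4-D and 89.9 and 93.8 in mock (0.30 ± 0.20, SE, limma adjusted p = 0.533). The receptor locus Solyc09g074520 had 266 and 307 on 2,4-D and 284 and 291 in mock, with overlapping groups. The synthesis locus Solyc03g112460 had 35.4 and 24.8 on 2,4-D and 48.1 and 35.3 in mock (-0.46 ± 0.52, adjusted p = 0.754). SAUR genes give small transcripts known as early auxin targets. The interval of chromosome 1 rich in SAUR genes held 56 loci, of which 5 reached the minimum and 0 were called. It takes every locus in its range, so the 5 need not be SAUR genes. Loci of the interval under the minimum were not tested. Solyc01g110550 had 783 and 846 on 2,4-D and 931 and 888 in mock (-0.16 ± 0.12, adjusted p = 0.584), and the median of the 5 was -0.16.

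ACC synthases make the ethylene precursor and ACC oxidases convert it to ethylene. Of 6 tested loci of these families 3 rose and 1 fell, beside 3.48% and 1.07% of all tested loci. Without the 2 that reached the minimum in one group alone, 2 of 4 rose. Solyc02g081190 had 122 and 197 normalized counts on 2,4-D and 24.5 and 47.3 in mock (log2 fold change 2.15 ± 0.36, SE, limma adjusted p = 0.00456), and Solyc12g005940 had 747 and 939 on 2,4-D and 338 and 396 in mock (1.19 ± 0.30, adjusted p = 0.0441). The other called loci lie near the detection limit on one side, so a fitted fold would depend on the pseudocount. Solyc08g081550 rose, with 19.6 and 14.8 on 2,4-D and 0.813 and 0 in mock (adjusted p = 0.00237), and Solyc03g043890 fell, with 0 and 1.25 on 2,4-D and 11.7 and 12.2 in mock (adjusted p = 0.00206). These low-level calls were kept with 1 root library left out and the same loci tested. Each locus reached the minimum through both libraries of one group, so the minimum over the 3 that remain would not admit it without either of those. The call of Solyc02g081190 ended without 2,4-D library 2 (adjusted p = 0.0734) or mock library 1 (0.0661), and that of Solyc12g005940 without any 1 root library (0.143 to 0.314).

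In the list of ethylene receptors, CTR kinases, EIN2, EIL factors and EBF F-box proteins, which holds activators and repressors of the pathway, 3 of 12 tested loci rose and 0 fell, with a median log2 fold change of 0.52 (2 of 11 and 0.40 without the locus that reached the minimum through 2,4-D alone). Solyc07g008250 had 396 and 308 normalized counts on 2,4-D and 150 and 166 in mock (1.14 ± 0.19, SE, limma adjusted p = 0.0042). Solyc06g073730 had 13.4 and 34.0 on 2,4-D and 2.63 and 2.25 in mock (2.71 ± 0.50, adjusted p = 0.00861), and its neighbour Solyc06g073720 had 140 and 136 on 2,4-D and 35.8 and 50.9 in mock (1.67 ± 0.38, adjusted p = 0.028). The groups were apart in Solyc07g008250 and Solyc06g073720, as in 53.8% of all tested loci, and in Solyc06g073730 the minimum fixed that. The 2 neighbouring loci rose from different levels, and whether their fold changes differ was not tested. Solyc07g008250 lost its call without 2,4-D library 1 (adjusted p = 0.0657) or mock library 1 (0.0591). Solyc06g073730 kept its call without 2,4-D library 1 (0.0129) and lost it without each other root library (0.0619 to 0.0989). Solyc06g073720 lost it without any 1 (0.0722 to 0.257), and 0 or 1 of the 12 was then called.

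Of 11 tested ERF loci, transcription factors that act downstream of ethylene, 1 rose: Solyc01g065980, with 36.7 and 75.8 normalized counts on 2,4-D and 15.4 and 12.0 in mock (log2 fold change 1.88 ± 0.31, SE, limma adjusted p = 0.00425). Its call was kept without any 1 root library when the same loci were tested. With the minimum over the 3 that remain, it ended without 2,4-D library 2. The ERF median was 0.58, or 0.38 without the locus that reached the minimum through 2,4-D alone. A larger difference, in Solyc06g065820, with 103 and 56.2 on 2,4-D and 14.4 and 21.2 in mock, was not called (2.06 ± 0.59, adjusted p = 0.081); this locus was chosen after its values were seen.

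Of 5 tested loci of the gibberellin list 3 rose, or 2 of 4 without Solyc01g079200, which reached the minimum through 2,4-D alone. The list holds oxidases that make or inactivate gibberellin, GID1 receptors and the DELLA repressor, so a count of risers is not a direction of the pathway. Solyc09g074270 had 526 and 454 normalized counts on 2,4-D and 162 and 202 in mock (log2 fold change 1.43 ± 0.18, SE, limma adjusted p = 0.000711). Solyc01g079200 had 30.6 and 24.6 on 2,4-D and 0 and 1.09 in mock (adjusted p = 0.000838), where the fold depends on the pseudocount. Solyc06g008870 had 150 and 143 on 2,4-D and 39.7 and 52.1 in mock (1.67 ± 0.30, adjusted p = 0.00694). With 1 root library left out and the same loci tested, the calls of Solyc09g074270 and Solyc01g079200 were kept. The minimum over the 3 libraries that remain would not admit Solyc01g079200 without either 2,4-D library. The call of Solyc06g008870 was kept without mock library 2 and lost without each other root library.

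Other hormone lists gave few calls, and of all tested loci 3.48% rose and 1.07% fell. Cytokinin oxidases, which break the hormone down, and type-A response regulators, which damp its signal, made up 6 tested loci with a median log2 fold change of -0.35, and 1 fell: Solyc02g071220, with 60.0 and 53.3 normalized counts on 2,4-D and 124 and 112 in mock (-1.05 ± 0.22, SE, limma adjusted p = 0.019). Of 8 tested jasmonate loci 1 rose: Solyc07g042170, with 83.3 and 95.9 on 2,4-D and 44.8 and 37.7 in mock (1.10 ± 0.24, adjusted p = 0.0229). Both calls ended without any 1 root library (adjusted p 0.0800 to 0.167 and 0.0895 to 0.168). None of 6 brassinosteroid loci was called; Solyc02g069490 had 2023 and 2154 on 2,4-D and 3516 and 3162 in mock (-0.68 ± 0.19, adjusted p = 0.0786). The abscisic acid locus Solyc08g005610, the only tested member of its list, had 15.8 and 22.2 on 2,4-D and 19.3 and 22.1 in mock, with overlapping groups. The only tested strigolactone synthesis locus, Solyc08g062950, had 78.3 and 34.2 on 2,4-D and was listed at 0 in both mock libraries. It was not called with the spread shared over both tissues (adjusted p = 0.0786), and it was with the root libraries fitted alone (adjusted p = 0.000412).

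XTH enzymes cut and rejoin xyloglucan in the wall, and of 14 tested loci 3 rose and 1 fell, beside 3.48% and 1.07% of all tested loci. Without Solyc05g005680, which reached the minimum through 2,4-D alone, 2 of 13 rose. Solyc09g008320 had 218 and 241 normalized counts on 2,4-D and 27.4 and 30.1 in mock (log2 fold change 2.95 ± 0.37, SE, limma adjusted p = 0.00077), kept without any 1 root library (adjusted p up to 0.0169). Solyc09g092520 had 183 and 202 on 2,4-D and 74.9 and 86.6 in mock (1.25 ± 0.21, adjusted p = 0.00575), and Solyc05g005680 had 35 and 17.1 on 2,4-D and 3.35 and 1.11 in mock (3.07 ± 0.60, adjusted p = 0.0122). Solyc01g099630 fell, with 235 and 212 on 2,4-D and 535 and 395 in mock (-1.04 ± 0.18, adjusted p = 0.00654). The list's median was 0.34, with 6 of 14 fold changes below 0. The calls of Solyc09g092520 and Solyc01g099630 ended without 2,4-D library 2 (adjusted p = 0.0669 and 0.0776) or mock library 1 (0.0714 and 0.0976), and that of Solyc05g005680 without 2,4-D library 1 (0.118) or mock library 2 (0.112).

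Of 5 tested expansins, proteins that loosen the wall, 1 rose: Solyc06g049050, with 338 and 262 normalized counts on 2,4-D and 123 and 111 in mock (log2 fold change 1.34 ± 0.32, SE, limma adjusted p = 0.0386), a call lost without any 1 root library (adjusted p 0.125 to 0.262). The cell cycle list of cyclins, cyclin-dependent kinases and their regulators had 16 tested loci, 0 calls and a median of -0.02, or -0.14 without 1 locus that reached the minimum through 2,4-D alone. Its locus of highest level, Solyc02g092980, had 322 and 350 on 2,4-D and 427 and 398 in mock (-0.30 ± 0.15, adjusted p = 0.358). The root patterning factors (4 tested, median 0.12) and the KNOX and HD-ZIP III homeobox factors (7 tested, median -0.00) also had 0 calls. Calls appeared in other fits: without 2,4-D library 2 the cell cycle locus Solyc04g078470 rose (adjusted p = 0.0483) and the homeobox locus Solyc03g120910 fell (adjusted p = 0.0301), and with the root libraries alone the cell cycle locus Solyc08g080080 rose (adjusted p = 0.0463). The 2 libraries of each group had 16.7 and 10 normalized counts on 2,4-D and 5.62 and 8.58 in mock for Solyc04g078470, 23.3 and 45.4 on 2,4-D and 48.3 and 48.9 in mock for Solyc03g120910, and 46.7 and 35.3 on 2,4-D and 19.8 and 18 in mock for Solyc08g080080. These 3 loci were chosen after their values were seen. Solyc11g010710 of the patterning list had 176 and 155 on 2,4-D and 137 and 138 in mock (0.26 ± 0.21, adjusted p = 0.625), and the homeobox locus Solyc11g069470 had 56.6 and 80.6 on 2,4-D and 78.5 and 58.2 in mock, with overlapping groups.

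Glutathione transferases couple glutathione to reactive or foreign compounds. Their list is 3 clusters of neighbouring loci, intervals rich in such genes. It takes every locus of each interval, so a member need not be a transferase. Of 23 tested loci 5 rose and 0 fell, with a median log2 fold change of 0.71; without Solyc01g081270, which reached the minimum through 2,4-D alone, 4 of 22 rose, with a median of 0.60. In the cluster on chromosome 7, all 7 tested loci had fold changes above 0 and 4 rose; on chromosome 9, 0 of 11 were called and 9 lay above 0; on chromosome 1, 1 of 5 rose and 2 lay above 0. Solyc07g056480 had 2871 and 2852 normalized counts on 2,4-D and 903 and 1070 in mock (1.54 ± 0.18, SE, limma adjusted p = 0.000537). Solyc07g056460 had 370 and 258 on 2,4-D and 97.5 and 80.8 in mock (1.79 ± 0.22, adjusted p = 0.000718). Solyc07g056470, which lies between them, had 223 and 231 on 2,4-D and 34.3 and 48.3 in mock (2.45 ± 0.49, adjusted p = 0.0135). Solyc07g056420 of the same cluster had 96.3 and 152 on 2,4-D and 49.2 and 45.7 in mock (1.33 ± 0.27, adjusted p = 0.0146).

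On chromosome 1, Solyc01g081270 had 12.1 and 17.0 normalized counts on 2,4-D and was listed at 0 in both mock libraries (limma adjusted p = 0.014). In the 4 called loci on chromosome 7 the groups were apart, as in 53.8% of all tested loci, and in Solyc01g081270 the minimum fixed that. Solyc07g056480 and Solyc07g056460 kept their calls without any 1 root library (adjusted p up to 0.0156), Solyc07g056420 kept its call without 2,4-D library 1 (0.0229) and lost it without each other one (0.0958 to 0.161), and the others lost theirs without any 1 (0.0554 to 0.152 for Solyc07g056470 and 0.0818 to 0.121 for Solyc01g081270). Tandem copies can be near-identical and share reads, so the split of counts among neighbours is uncertain, and the loci of a cluster are not independent of each other.

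Stress and secondary metabolism lists gave scattered calls. In the list of proteinase inhibitors, PR proteins, chitinases, glucanases and polyphenol oxidases 1 of 6 tested loci rose: Solyc02g082920, with 104 and 107 normalized counts on 2,4-D and 12.6 and 20 in mock (log2 fold change 2.66 ± 0.43, SE, limma adjusted p = 0.00426). Its call was kept without mock library 2 (adjusted p = 0.0158) and lost, narrowly, without each other root library (0.0503 to 0.0628). In the phenylpropanoid and flavonoid list 1 of 6 fell and 1 rose. Solyc10g086180 had 276 and 267 on 2,4-D and 480 and 497 in mock (-0.85 ± 0.13, adjusted p = 0.00346). Its call was kept without any 1 root library when the same loci were tested. With the minimum over the 3 that remain, it ended without either 2,4-D library. Solyc11g013110 had 24.4 and 23.4 on 2,4-D and 11.8 and 7.75 in mock (1.23 ± 0.30, adjusted p = 0.0377), lost without any 1 (0.065 to 0.265). None of 4 heat shock loci was called, and the locus of highest level, Solyc06g076020, had 267 and 290 on 2,4-D and 333 and 319 in mock (-0.23 ± 0.47, adjusted p = 0.881).

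Water channels gave calls in both directions, in a list assembled after the data had been examined, so its counts support nothing. Of 15 tested aquaporins, which carry water across the plasma membrane and the tonoplast, 4 rose and 1 fell, with a median log2 fold change of 0.30; without 2 loci that reached the minimum through 2,4-D alone, 3 of 13 rose and 1 fell, with a median of 0.27. Solyc06g060760 had 589 and 441 normalized counts on 2,4-D and 31.4 and 63.1 in mock (3.48 ± 0.42, SE, limma adjusted p = 0.000688), and Solyc06g075650 had 194 and 130 on 2,4-D and 42.1 and 31.4 in mock (2.10 ± 0.30, adjusted p = 0.00196). Both were kept without any 1 root library when the same loci were tested. With the minimum over the 3 that remain, Solyc06g075650 lost its call without 2,4-D library 1. Solyc11g069430 had 2724 and 2286 on 2,4-D and 1263 and 1158 in mock (1.04 ± 0.22, adjusted p = 0.0175). Solyc10g055630 moved the other way, with 1313 and 1342 on 2,4-D and 2479 and 2045 in mock (-0.76 ± 0.14, adjusted p = 0.00784). Solyc10g083880 had 123 and 82.4 on 2,4-D and was listed at 0 in both mock libraries (adjusted p = 0.0339). The calls of Solyc11g069430 and Solyc10g083880 ended without any 1 root library (adjusted p 0.0734 to 0.170 and 0.162 to 0.209), and that of Solyc10g055630 was kept without mock library 2 (0.0197) and lost without each other one (0.067 to 0.129).

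The lists of nutrient uptake and nitrogen assimilation had 1 call each. Of 6 tested carriers of iron, ammonium, nitrate, phosphate and potassium 1 rose: Solyc12g005670, with 34.3 and 23.5 normalized counts on 2,4-D and 7.5 and 4.42 in mock (log2 fold change 2.12 ± 0.42, SE, limma adjusted p = 0.0135), a call lost without 2,4-D library 1 (adjusted p = 0.0735) or mock library 2 (0.0774). That locus reached the minimum through 2,4-D alone, and none of the other 5 was called. In the nitrogen assimilation list, also assembled after the data had been examined, 1 of 7 rose: Solyc04g014510, with 365 and 383 on 2,4-D and 155 and 189 in mock (1.12 ± 0.25, adjusted p = 0.0259), lost without any 1 root library (0.0781 to 0.236). Of 6 tested invertases and sucrose synthases, again from a list assembled later, 0 were called. Solyc07g042550 of that list had 809 and 815 on 2,4-D and 329 and 295 in mock (1.38 ± 0.57, adjusted p = 0.249).

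The clock, reference and photosynthesis lists had 1 call among them. Of 8 tested clock loci 1 rose: Solyc12g056650, with 106 and 75.7 normalized counts on 2,4-D and 52.4 and 44.7 in mock (log2 fold change 0.87 ± 0.19, SE, limma adjusted p = 0.0231), kept without 2,4-D library 2 (adjusted p = 0.0204) and lost without each other root library (0.0748 to 0.189). Of 11 loci used as constant references in tomato 0 were called, with a median of -0.19 and a range of -0.58 to 0.33. Solyc05g014470 of that list had 36361 and 29901 on 2,4-D and 29490 and 29572 in mock (0.16 ± 0.20, adjusted p = 0.78). Of the 26 photosynthesis loci 3 were tested and 0 called, and Solyc12g011450, which makes up most of their sum in root, had 984 and 959 on 2,4-D and 1193 and 1259 in mock (-0.34 ± 0.11, adjusted p = 0.145).

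**Figure D3:**
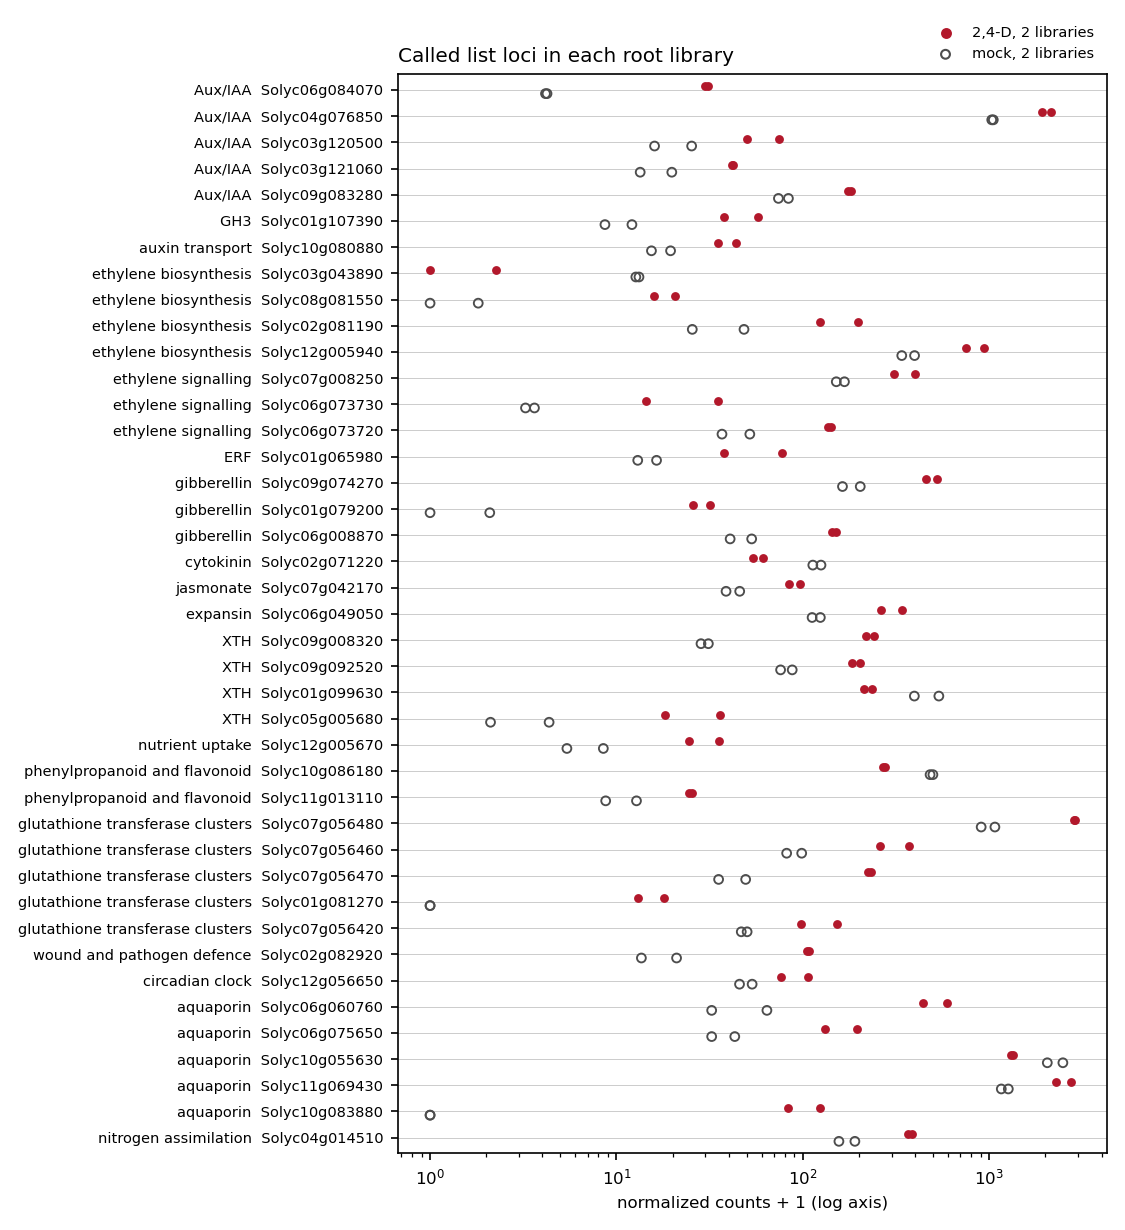
Normalized counts plus 1, on a log axis, of 41 of the 42 called list loci, all but Solyc03g120390, in the 2,4-D root libraries (filled red) and the mock root libraries (open). The groups are apart in every locus shown, as in 53.8% of all tested loci. For loci that reached the minimum through one group alone, the minimum fixed that. In the 5 loci that fell the open points lie to the right. The 6 lowest rows come from lists assembled after the data had been examined.

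For some listed loci a wide gap between the root groups gave no call with the leaf libraries in the estimate of the spread, and did with the root libraries alone. These loci were chosen after their values were seen. The Aux/IAA locus Solyc09g065850 had 47.6 and 42.1 normalized counts on 2,4-D and 0.82 and 0 in mock (limma adjusted p = 0.307 with all 10 libraries and 0.000501 with the root libraries alone). The XTH locus Solyc12g011030 had 579 and 506 on 2,4-D and 159 and 213 in mock (0.559 and 0.000411). In the glutathione transferase clusters, Solyc09g011520 had 640 and 697 on 2,4-D and 146 and 244 in mock (limma adjusted p = 0.475 and 0.000745). Solyc07g056500 of these clusters had 66.0 and 53.9 on 2,4-D and 9.22 and 13.3 in mock (0.139 and 0.00162). For the sucrose locus Solyc07g042550 the root-alone value was 0.000105. Fitted alone, the root libraries gave 1141 calls, 728 that rose and 413 that fell, with only the 4 root libraries behind each estimate, and 58 calls among the 29 lists in place of 36. Lists without a call in the main analysis that then had 1 included those of auxin receptors, brassinosteroid, strigolactone and cell cycle. The others were heat shock, constant references and, among those assembled later, sucrose cleavage. Calls were also lost with root alone, where 537 of the 576 main calls were kept. Among list loci, Solyc03g120390 (Aux/IAA) and Solyc11g013110 (phenylpropanoid and flavonoid) lost theirs (limma adjusted p = 0.0716 and 0.0723).

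Outside the lists, the loci with the highest and the lowest fold changes were off or nearly off in one group. Solyc00g072400 had 342 and 222 normalized counts on 2,4-D and 0 and 1.12 in mock (limma adjusted p = 0.00153), and Solyc10g076243 had equal values in every library, so reads could not be assigned to either with certainty. A fall was called for Solyc01g079390, with 0.726 and 0.345 on 2,4-D and 81.6 and 182 in mock (adjusted p = 0.00847), and for Solyc08g076335, with 0 and 2.44 on 2,4-D and 33.2 and 115 in mock (adjusted p = 0.00117). The mock libraries of both fallers differed by more than a factor of 2 from each other. With 1 root library left out and the same loci tested, the calls of Solyc00g072400 and Solyc08g076335 were kept and that of Solyc01g079390 ended. These loci reached the minimum through both libraries of one group, so the minimum over the 3 that remain would not admit them without either of those. Among all called loci, 91 of those that rose had both mock libraries under 3 normalized counts, 28 of them at 0 in both, and 7 of those that fell had both 2,4-D libraries under 3.

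Risers were spread over the genome. By the chromosome number in the identifier, 2.76% to 3.96% of tested loci rose on chromosomes 1 to 12 and 0.655% to 1.38% fell. Runs of at least 3 neighbouring tested loci that all rose occurred 4 times, on chromosomes 2 and 4 and in 2 places on chromosome 7, and each run had 3 loci. The later run on chromosome 7 is Solyc07g056460 to Solyc07g056480 of the glutathione transferase cluster. With 1 root library left out 0 or 1 run was left, and the root libraries alone gave 11.

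Where the root response differed from that of leaf primordia was tested as the root fold change minus the leaf fold change, over 11313 loci tested in both experiments; 425 differed (3.76%). Tissue, compound, plant age, growth and application changed together between the experiments and cannot be told apart. Of the 309 root risers tested there, 131 had a response that was higher in root and 1 a response that was higher in leaf. Of the 117 root fallers, 52 fell more in root and 0 fell less. Since the loci were chosen for a change in root, a larger change in root is favoured by that choice. With 1 root library left out, 204 to 238 loci differed.

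Among named loci, the aquaporin Solyc06g060760 had a log2 fold change of 3.48 in root and -0.28 in leaf, a difference of 3.77 ± 0.55 (SE, limma adjusted p = 0.00273). The XTH locus Solyc09g092520 had 1.25 in root and -1.27 in leaf (difference 2.51 ± 0.28, adjusted p = 0.00053), and the XTH locus Solyc09g008320 2.95 in root and 0.07 in leaf (2.88 ± 0.48, adjusted p = 0.00662). The clock locus Solyc12g056650 had 0.87 in root and -1.77 in leaf (2.64 ± 0.25, adjusted p = 0.000202). The phenylpropanoid and flavonoid locus Solyc10g086180 had -0.85 in root and 1.73 in leaf (-2.58 ± 0.17, adjusted p = 2.63e-05). The XTH, clock and phenylpropanoid loci with opposite signs were called in each experiment on its own (leaf adjusted p = 0.00108, 6.84e-05 and 7.89e-06).

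Of the named Aux/IAA loci, Solyc04g076850 had a difference that passed the test, with a log2 fold change of 0.96 in root and 0.16 in leaf (difference 0.80 ± 0.19, SE, limma adjusted p = 0.0387). Solyc06g084070 had 2.85 in root and 2.75 in leaf (difference 0.11 ± 0.51, adjusted p = 0.943), and an error of that size leaves room for a difference of about 1 on this scale. Solyc09g083280 had 1.17 in root and 2.17 in leaf (-1.0 ± 0.33, adjusted p = 0.142). The ethylene loci Solyc06g073730 and Solyc01g065980 had 2.71 and 1.88 in root and -0.24 and -0.04 in leaf (differences 2.95 ± 0.64 and 1.92 ± 0.40, adjusted p = 0.0277 and 0.0201), while for the 3 gibberellin risers the difference was either not called or not tested.

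**Figure D4:**
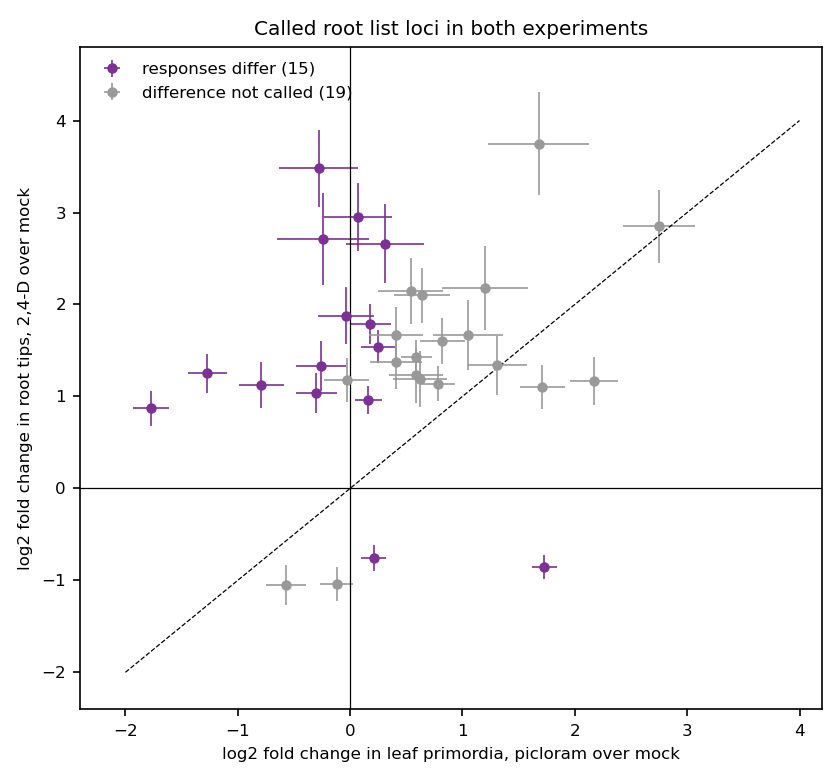
Log2 fold change in root tips (2,4-D over mock, vertical) against that in leaf primordia (picloram over mock, horizontal) for 34 called root list loci that were tested in both, with bars of 1 SE and a dashed line of equal response. The 15 loci whose responses differed (purple) lie mostly near 0 in leaf or across 0, and for 19 (grey) no difference was called; Solyc10g083880 is left out because its mock root libraries are at 0.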

How the data were processed

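Polyadenylated transcripts were read from the 3′ end in 4 root and 6 leaf libraries, per the labels' protocols. The authors deposited a non-negative signal, gene counts already normalized, for 35767 loci; the submitters' processing notes name Salmon 0.8.2 and DESeq2 but give neither a role, and the genome build is not given in the sources used here. Values were matched to samples by column title. Low values lay near whole multiples of 1 read for 70.4% to 83.4% per root library (tolerance 0.1 read, up to 20 reads), too few to recover whole reads, so no test on read counts was run. Approximate depth was 2.32 to 3.47 M reads per root library; it limits the precision of values near the minimum.

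limma 3.58.1 (R 4.3.3) was fitted with a mean-variance trend to log2(value + 1) in the 10 libraries together, each group having its own mean, with 6 residual degrees of freedom and 5.55 from the prior. Loci with at least 10 in at least 2 root libraries were tested, 2-sided, with Benjamini-Hochberg adjustment, and called at an adjusted p under 0.05. Fold changes on this scale understate the change of low loci.

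The moderation of the spread was first run over the 12664 tested loci (prior 5.63), which called 593 loci, 455 that rose and 138 that fell. After that result and an earlier count from these data were known, it was set to the 15761 loci reaching the minimum in either tissue, which gives the 576 calls reported; the first version is kept as an alternative.

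The loci, lists and tests were chosen with earlier results of these data known. Up to 5 called loci of smallest adjusted p were named per list, or else the locus of highest level, and outside the lists the 2 highest and 2 lowest fold changes; the 6th called Aux/IAA locus, the marker loci of the root label, the uncalled Solyc06g053830, Solyc06g053840, Solyc06g065820, Solyc04g078470, Solyc08g080080 and Solyc03g120910, and loci described as chosen after their values were seen fall outside this rule. RefSeq (SLM_r2.1, 41476 rows) named 0 of the identifiers; for 13 families, 204 of 225 listed loci lay on a chromosome that holds a RefSeq symbol of the family. No sequence was used here. Alternatives varied the pseudocount, minimum, normalization, moderation, replicate block and libraries.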

Additional observations from a re-analysis of the deposited data

Results flagged for a closer look

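Named loci whose root response to 2,4-D differed from the leaf response to picloram, by limma's test of the difference, are given as the root minus the leaf log2 fold change. The difference was above 0 for the Aux/IAA locus Solyc04g076850 (0.80), the ethylene signalling locus Solyc06g073730 (2.95) and the ERF locus Solyc01g065980 (1.92). The same held for the XTH loci Solyc09g008320 (2.88) and Solyc09g092520 (2.51). In the glutathione transferase clusters it was above 0 for Solyc07g056480 (1.29), Solyc07g056460 (1.61) and Solyc07g056420 (1.59). It was also above 0 for the defence locus Solyc02g082920 (2.35), the clock locus Solyc12g056650 (2.64), the aquaporins Solyc06g060760 (3.77) and Solyc11g069430 (1.34), and the nitrogen assimilation locus Solyc04g014510 (1.92). It was below 0 for the brassinosteroid locus Solyc02g069490 (-2.04), the phenylpropanoid and flavonoid locus Solyc10g086180 (-2.58), the aquaporin Solyc10g055630 (-0.97) and Solyc08g076335 outside the lists (-4.65). The strigolactone locus Solyc08g062950 had a difference of 10.10 with neither response called on its own; its mock root libraries are at 0, so the size depends on the pseudocount. Tissue, compound, plant age, growth and application changed together and cannot be told apart.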

How the results depend on the processing

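Counts of calls rested on the estimate of the spread and on each root library. With the root libraries alone 1141 loci were called (728 rose, 413 fell), 58 in the lists, with 11 runs; after quantile normalization 357 (63 fell), 23 in the lists, with 1 run; with no mean-variance trend 70 fell, 223 differed from leaf and 1 run was left. With 1 root library left out and the same loci tested, 252 to 362 were called (207 to 324 rose, 13 to 52 fell), 14 to 22 in the lists, with 0 to 1 runs, and 204 to 238 differed from leaf; with 1 of any of the 10 libraries left out, the highest counts were 669 calls (488 and 181), 41 in the lists, 5 runs and 477 differences, all without leaf mock library 1. In those fits the lone library of a group is assumed to vary like the other groups. Applying the minimum to the remaining 3 libraries tests fewer loci: 248 (239 and 9) were called without mock library 1, 351 (322 and 29) without mock library 2, 90 (64 and 26) without 2,4-D library 1 and 100 (69 and 31) without 2,4-D library 2, with 13, 21, 9 and 8 in the lists and 197, 217, 167 and 174 that differed, in that order. In all 4 fits with the loci kept, 177 of the 576 loci were called (30.7%), 167 that rose and 10 that fell. Of calls, 76.6% rose in the main analysis, 63.8% with root alone and 94.8% without mock library 1. Moderation over the tested loci alone, added after the data were seen, gave 593 calls, 485 differences and 37 list calls. Replicate numbers are shared between groups, but deviations of same-numbered libraries correlated weakly (r = 0.10 in root and 0.0956, 0.00567 and 0.00188 in leaf). The numbers were therefore not taken to pair the libraries. Some features did follow the number in root. In a principal component analysis of the root libraries, PC1 held 68.3% of the variance and PC2 18.3%. PC2 parted library 1 from library 2 in both groups. Its scores were 29.2 and -27.75 for 2,4-D libraries 1 and 2, and 9.435 and -10.89 for mock libraries 1 and 2. Approximate depth was 3.44 M reads in 2,4-D library 1 and 3.47 M in mock library 1, against 2.32 and 2.57 M in library 2 of these groups. Some photosynthesis loci also followed it, and what the number stands for was not tested. With the replicate block 519 loci were called, 404 that rose and 115 that fell, and 462 of the 576 main calls were kept. In that fit 2 GH3 loci and 1 photosynthesis locus rose. The calls of Solyc10g083880 and Solyc03g120390 ended there (limma adjusted p = 0.0685 and 0.0638). Uncalled loci near 0 changed sign: Solyc09g074520 (0.00 after quantile normalization or equal totals, 0.01 and 0.09 without mock 2 or 2,4-D 1, -0.11 without 2,4-D 2), Solyc05g014470 (-0.17 after quantile normalization), Solyc11g069470 (0.01 with equal totals, 0.21 and 0.25 without mock 1 or 2,4-D 1, -0.25 without 2,4-D 2) and Solyc08g005610 (0.10 without 2,4-D 1, -0.37 without 2,4-D 2). The cause of these changes was not tested.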

Other observations

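Over all 26 photosynthesis loci, 13 and 9 were at 0 in 2,4-D root libraries 1 and 2, and 15 and 11 in mock root libraries 1 and 2. Of the 3 tested photosynthesis loci, 2 followed the library number in root tips. Solyc03g034220 had 5.22 and 47.8 normalized counts in 2,4-D libraries 1 and 2 and 4.23 and 48.8 in mock libraries 1 and 2. Solyc07g047850 had 6.14 and 34.3 on 2,4-D and 4.2 and 16.6 in mock. These loci were chosen after their values were seen.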
